A study of Mus musculus with 84 samples.

Results

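The 10 genes described here surround asparagine synthetase (Asns). They are the stress transcription factors Atf4, Atf3 and Ddit3, the stress targets Trib3, Chac1 and Sesn2, and the serine synthesis enzymes Phgdh, Psat1 and Psph, together with Asns itself. They were chosen by name, as the rows whose Ensembl identifier carries these symbols, and all 10 were found among the 48794 identifiers of the liver and the adipose tables. The question was whether Asns, when it rose under BI 456906, was joined by a wider response to amino acid shortage. The tissues came from male C57BL/6J mice with diet-induced obesity (DIO mice), which were fed a high-fat diet, housed singly and 22 weeks old at the start. Mice were dosed subcutaneously every day for 30 days with vehicle, with semaglutide at 20 or 100 nmol/kg, or with 3, 10, 20 or 30 nmol/kg of BI 456906, so all groups shared the diet and the obesity. BI 456906 is an acylated glucagon-based peptide that activates both the glucagon receptor (GCGR) and the GLP-1 receptor (GLP-1R), and semaglutide is an acylated GLP-1R agonist. Liver and epididymal white adipose tissue (eWAT) were each sequenced in 7 groups of 6 libraries, 84 libraries in all.

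The integrated stress response starts when kinases phosphorylate the translation factor eIF2alpha: GCN2 (Eif2ak4) senses uncharged tRNA, PERK (Eif2ak3) unfolded protein in the endoplasmic reticulum (ER), PKR (Eif2ak2) double-stranded RNA and HRI (Eif2ak1) lack of heme. Translation of the transcription factor ATF4 then rises, and ATF4 raises genes for amino acid synthesis, uptake and tRNA charging, Asns among them. Since ATF4 is set largely at translation, its mRNA does not report its activity. PHGDH, PSAT1 and PSPH act in series to make serine from a glycolytic intermediate, and in liver glucagon is known for driving amino acid breakdown.

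Because ATF4 binds C/EBP-ATF response elements, the core TGATGNAA (N stands for any base) was searched on both strands of the RefSeq promoters of GRCm38.p6, from 250 bases before to 50 bases after each gene's start. All 10 genes had a promoter window, and the core was found in 4 of them, Asns, Atf3, Chac1 and Trib3, and in 3.97% of all 32851 windows. The cAMP response element TGACGTCA, bound by CREB, a factor downstream of the glucagon receptor, was found in 0 of the 10 and in 1.79% of all windows, so no match to the core overlapped it. The 4 matches are shown because they are where this core occurs in the windows of the 10 genes. Elements outside the windows or with another core were not searched. Capitals mark the match, with 11 bases on each side, along the strand of the gene.
Asns: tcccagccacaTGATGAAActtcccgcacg
Atf3: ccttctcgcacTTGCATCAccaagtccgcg
Chac1: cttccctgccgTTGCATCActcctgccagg
Trib3: ttagctcaggtTTACATCAgccgggcgggg
The Asns match lies at chr6:7693225-7693232, on the strand of the gene and in the promoter element known for sensing nutrients. The Atf3 match lies at chr1:191183436-191183443, the Chac1 match at chr2:119351049-119351056 and the Trib3 match at chr2:152344039-152344046, each on the strand opposite to its gene. Matches are a description of the letters and not of binding.

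Depth was 21676902 to 53869104 recovered reads per liver library (median 43179390) and 37573004 to 53996914 per eWAT library (median 46475069). Levels are the authors' TPM values, which correct for gene length and are scaled to the same total in every library. Whether groups overlap is stated for TPM values. Some groups that do not overlap in TPM overlap as reads scaled to library size (CPM). Among them in liver are Atf4 at BI 456906 30 nmol/kg, Atf3 at 10 nmol/kg and Phgdh at semaglutide 100 nmol/kg, each against vehicle. Trib3 between the compounds at 20 nmol/kg in liver is another. Changes are log2 fold changes from limma/voom on the deposited reads, and a gene is called changed where its false discovery rate over all genes tested (FDR) is at most 0.05. All 10 genes passed the filter on low counts in both tissues, where 15964 genes were tested in liver and 18536 in eWAT. Hepatocyte markers (Alb, Apoa1, Ttr, Serpina1c, Apob, Tat) summed to 68834 to 110231 TPM in liver, while adipocyte markers (Adipoq, Plin1, Lep, Cidec, Lipe, Fabp4) summed to 10809 to 34196 TPM in eWAT. In both tissues other cell types were present, and in bulk tissue fewer cells of a type and less RNA per cell cannot be told apart.

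In vehicle mice Asns, Phgdh, Psat1 and Atf3 were far more abundant in eWAT than in liver, although the tables of the tissues were normalized separately. Mean Phgdh was 294 ± 114 TPM (SD, n = 6) in eWAT and 0.265 ± 0.0568 TPM in liver. Mean Psat1 was 84.8 ± 24.9 against 0.463 ± 0.120 TPM, and mean Asns 27.2 ± 6.10 against 0.372 ± 0.328 TPM. The liver of these mice thus held almost no transcript of the enzymes that open serine synthesis: across all 42 liver libraries Phgdh had 4 to 21 reads, Psat1 12 to 68 and Asns 5 to 320. Mean Atf3 was 161 TPM in eWAT and 3.70 TPM in liver. For Atf4 the levels were closer, with 110 ± 6.84 TPM in eWAT and 56.8 ± 1.72 TPM in liver. Ddit3, Psph and Sesn2 had 4.25, 3.01 and 2.84 times the liver level in eWAT. Trib3 and Chac1 had 1.38 and 1.41 times that level, and their vehicle libraries overlapped between the tissues.

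In liver, Asns, which makes asparagine from aspartate and glutamine, rose at the upper 2 doses of BI 456906 and did not pass the test at either dose of semaglutide. The 6 vehicle libraries ran from 0.10 to 0.98 TPM with a median of 0.275. At BI 456906 20 nmol/kg the lowest, median and highest values were 0.67, 1.38 and 4.93 TPM, and at 30 nmol/kg they were 0.57, 2.98 and 5.51 TPM. The highest vehicle library lay above the lowest library of both groups, so the groups overlapped, but each median was above every vehicle value. On the log2 scale the fold change was 2.20 at the lower of these doses (SE 0.78, FDR 0.020) and 2.88 at the higher (SE 0.75, FDR 0.0013). Over all doses the slope was 1.01 for each 10 nmol/kg (SE 0.20, FDR 4.2e-05). An exact two-sided permutation test of the TPM values gave p = 0.0043 at 30 nmol/kg, where 924 arrangements allow no p under 0.00216. BI 456906 at 3 and 10 nmol/kg reached at most 1.65 and 0.98 TPM, and semaglutide at 20 and 100 nmol/kg at most 1.31 and 1.28 TPM. None of these 4 groups passed the test, and their log2 fold changes ran from 0.18 to 0.40, with SEs of 0.92 to 0.94. On the TPM scale the semaglutide groups stood higher than these values, with medians of 0.88 and 0.73 TPM for 20 and 100 nmol/kg. Their mean TPM was 2.07 and 2.01 times the vehicle mean, and a rise of that size was not detectable here. In CPM their means were 0.605 and 0.610, against 0.543 in vehicle. Their highest TPM values came from replicates 77 and 81, with 21676902 and 30040261 reads in all, against a liver median of 43179390. By mean TPM the order was vehicle, BI 456906 10 and 3 nmol/kg, semaglutide 100 and 20 nmol/kg, BI 456906 20 and 30 nmol/kg, and every pair of neighbours in this order overlapped. Without replicate 65 of the 20 nmol/kg group the call at that dose was lost (log2 fold change 1.83, FDR 0.054).

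**Figure D1:**
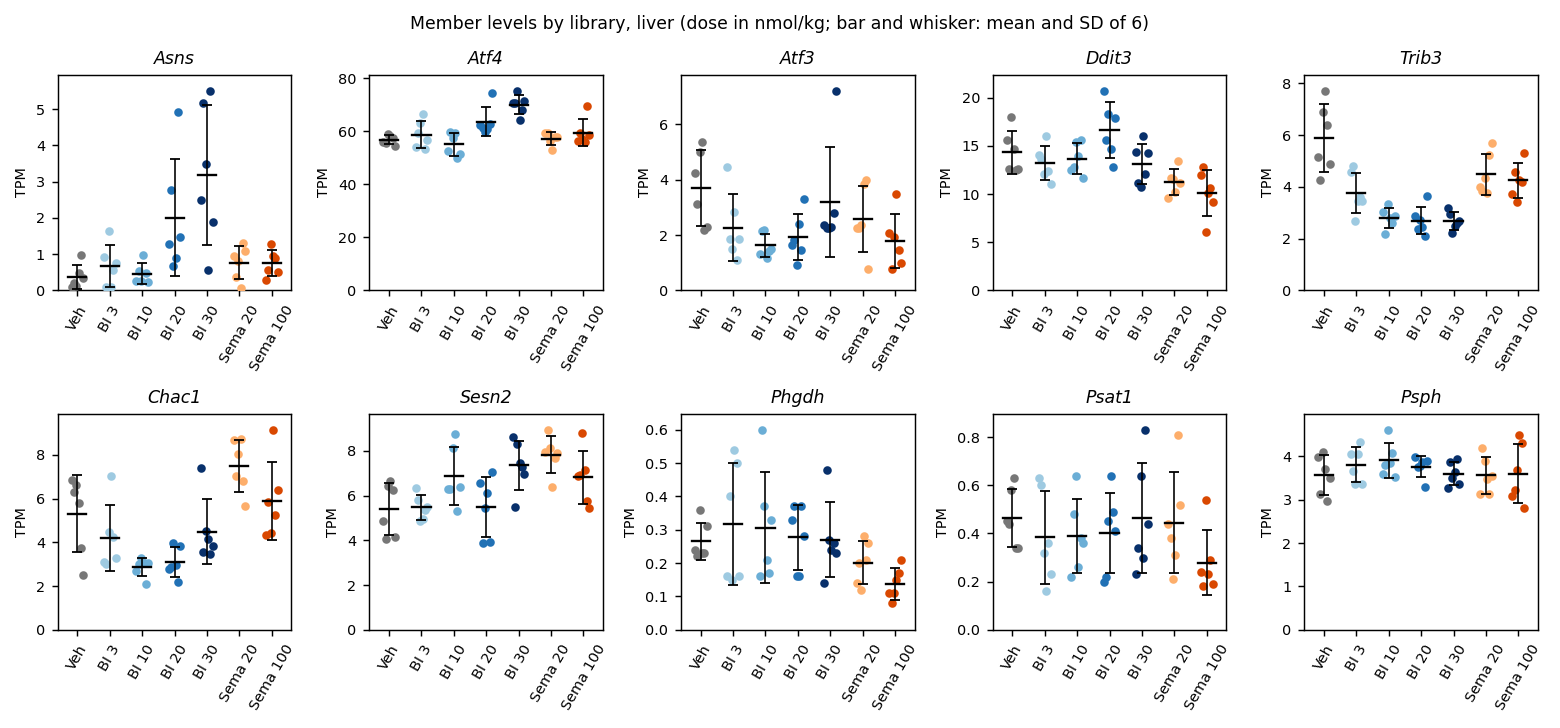
Level of each of the 10 genes in liver, in TPM, for the 7 groups on the horizontal axis (dose in nmol/kg); each point is a library, and the bar and whisker are the mean and SD of 6. Asns is raised with a wide spread at BI 456906 20 and 30 nmol/kg, whereas Trib3 at 10, 20 and 30 nmol/kg lies below every vehicle value.

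The transcription factors did not share the size of this rise. The slope over all doses was called higher for Atf4, as it was for Asns, where 29.3% of all genes were. Atf4 ran from 54.5 to 59.1 TPM in vehicle (median 56.7) and from 64.2 to 75.4 TPM (median 70.8) at BI 456906 30 nmol/kg, with no overlap, as 29.4% of all genes at this dose. Its log2 fold change there was 0.21 (SE 0.07, FDR 0.011), a small rise in a transcript with a narrow spread, and on reads at 10 nmol/kg Atf4 fell by 0.18 (SE 0.07, FDR 0.045). On the TPM scale the 49.97 to 59.7 TPM at 10 nmol/kg overlapped vehicle, with means of 55.2 and 56.8 TPM and an exact two-sided permutation p of 0.39. At 20 nmol/kg the TPM values, 59.8 to 74.6, also lay above all vehicle values (19.3% of all genes did not overlap). The fitted log2 fold change on reads there was 0.04 (FDR 0.65). The TPM and the read scale thus differ at 10 and 20 nmol/kg as well as at 30 nmol/kg. In 12 fits 1 library of vehicle or of the 10 nmol/kg group was left out each time. The fall at 10 nmol/kg was lost without vehicle replicate 45, 47 or 48 or BI 456906 replicate 57, 59 or 60, with values between -0.18 and -0.14.

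Atf3, a stress-induced repressor and activator of the ATF/CREB family, fell in 3 groups. Vehicle libraries had 2.18 to 5.35 TPM (median 3.70), against 1.19 to 2.17 TPM at BI 456906 10 nmol/kg (median 1.46), which did not overlap, as 13.7% of all genes. Its log2 fold changes were -1.26 at 10 nmol/kg (SE 0.40, FDR 0.013), -1.01 at 20 nmol/kg (SE 0.39, FDR 0.032) and -1.16 for semaglutide 100 nmol/kg (SE 0.40, FDR 0.015). At 30 nmol/kg it was -0.24 (FDR 0.57), with 5 libraries at 2.26 to 2.78 TPM and replicate 72 at 7.22 TPM. The call at 20 nmol/kg was lost without vehicle replicate 43, 45 or 46 or BI 456906 replicate 61, 63 or 65, with values between -0.95 and -0.83. Ddit3, which encodes the pro-apoptotic factor CHOP, ran from 12.5 to 18.01 TPM in vehicle and from 10.8 to 16.0 TPM at BI 456906 30 nmol/kg, which overlap, with a log2 fold change of -0.16 (FDR 0.28). It fell under semaglutide, where the log2 fold change was -0.41 for 20 nmol/kg (SE 0.13, FDR 0.010) and -0.55 for 100 nmol/kg (SE 0.13, FDR 0.00090).

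Trib3, a pseudokinase that ATF4 and CHOP induce and that restrains them, moved opposite to Asns. Its values were 4.27, 5.77 and 7.72 TPM (lowest, median, highest) in vehicle and 2.21, 2.64 and 3.19 TPM at BI 456906 30 nmol/kg. All values at 10, 20 and 30 nmol/kg lay below all vehicle values, where 13.7%, 19.3% and 29.4% of all genes did not overlap. Trib3 fell in all 6 treated groups, with log2 fold changes of -0.71, -1.16, -1.21 and -1.28 from 3 to 30 nmol/kg and of -0.50 and -0.54 for semaglutide 20 and 100 nmol/kg (FDR 2.3e-09 at 30 nmol/kg and at most 0.0017 in the others). Its slope was -0.35 for each 10 nmol/kg (SE 0.04, FDR 1.3e-08). Chac1, a glutathione-degrading enzyme that ATF4 induces, fell at 10 nmol/kg, by 0.90 (SE 0.22, FDR 0.0013), and also at 20 nmol/kg, by 0.80 (SE 0.22, FDR 0.0025). Its vehicle values ran from 2.51 to 6.86 TPM, and those at 10 nmol/kg from 2.08 to 3.27 TPM, which overlap. At 30 nmol/kg it did not pass the test (-0.27, FDR 0.26), and at semaglutide 20 nmol/kg it rose by 0.47 (SE 0.18, FDR 0.033), a call lost without vehicle replicate 47 or 48 or semaglutide replicate 73, 75 or 76 (0.32 to 0.45).

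Sesn2, a stress-induced inhibitor of mTORC1 that also senses leucine, rose a little. Vehicle libraries had 4.04 to 6.64 TPM (median 5.55), BI 456906 30 nmol/kg 5.48 to 8.62 TPM (median 7.38) and semaglutide 20 nmol/kg 6.38 to 8.94 TPM (median 7.92). Both treated groups overlapped vehicle. For BI 456906 the log2 fold change was 0.38 (SE 0.14, FDR 0.021), and for semaglutide it was 0.47 (SE 0.14, FDR 0.0058). The former was lost without vehicle replicate 44 (0.29) or BI 456906 replicate 67 (0.33) or 69 (0.34).

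The serine synthesis enzymes did not rise in liver. Phgdh, which opens the pathway, ran from 0.22 to 0.36 TPM in vehicle and from 0.14 to 0.48 TPM at BI 456906 30 nmol/kg, and no group passed the test. At semaglutide 100 nmol/kg its 0.08 to 0.21 TPM lay below all vehicle values (17.5% of all genes did not overlap), with a log2 fold change of -0.65 (FDR 0.14). The 95% interval at BI 456906 30 nmol/kg was -0.29 to 1.02, and at 4 to 21 reads a change within it was not detectable. Psat1, the aminotransferase of the pathway, ran from 0.34 to 0.63 TPM in vehicle and from 0.22 to 0.64 TPM at BI 456906 10 nmol/kg. On reads it fell by 0.75 at BI 456906 10 nmol/kg (FDR 0.038), by 0.69 at semaglutide 20 nmol/kg (FDR 0.044) and by 0.75 at semaglutide 100 nmol/kg (FDR 0.031), each with an SE of 0.29. On the log2(TPM + 0.1) scale the same differences were -0.23, -0.10 and -0.61 and none was called. On reads the call at BI 456906 10 nmol/kg was lost without vehicle replicate 43, 44, 45 or 46 or BI 456906 replicate 55, 57, 58 or 60 (-0.77 to -0.62). That at semaglutide 20 nmol/kg was lost without vehicle replicate 43, 44, 45 or 46 or semaglutide replicate 75, 76 or 78 (-0.70 to -0.59), and that at 100 nmol/kg without vehicle replicate 45 or 46 or semaglutide replicate 80, 82 or 84 (-0.72 to -0.62). Psph, the phosphatase that ends the pathway, had 2.97 to 4.10 TPM in vehicle and 3.28 to 3.94 TPM at 30 nmol/kg, with log2 fold changes from -0.09 to 0.06 over the 6 treated groups, none called. Psph shares 452 bases of opposite-strand sequence with Cct6a, which had up to 5386 reads per liver library, and Ddit3 overlaps the opposite-strand gene Mars, so their reads are uncertain if strand was not used in counting.

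Over the 10 genes, 4 were called in liver at BI 456906 30 nmol/kg, 3 higher (Asns, Atf4, Sesn2) and 1 lower (Trib3), where 28.9% of all tested genes were called higher and 29.9% lower. At 20 nmol/kg 1 was higher and 3 lower (23% and 22.9% of all genes), at 10 nmol/kg 0 and 5 (19.4% and 18.1%), and at 3 nmol/kg 0 and 1 (8.46% and 4.93%). Semaglutide 20 nmol/kg called 2 higher and 3 lower (23% and 23.5% of all genes) and 100 nmol/kg 0 higher and 4 lower (24% and 24.1%). The members' share of calls at 30 nmol/kg was therefore below that of all genes. Their median log2 fold change was -0.10 against -0.03 over all genes. Of the 4 called at that dose, Asns and Trib3 reached a log2 fold change of 1 in size, as did 12.9% of all genes. These 6 comparisons share the vehicle libraries.

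The compounds were matched at 20 nmol/kg by dose alone. The paper reports that plasma exposure and receptor potency differed between the compounds. The part of exposure and potency in the differences given here was not tested. At the matched dose of 20 nmol/kg, BI 456906 and semaglutide differed in 4 of the 10 genes in liver, 1 higher and 3 lower under BI 456906, where 0.908% and 1.51% of all genes were. Trib3 was 0.71 lower on the log2 scale (SE 0.15, FDR 0.0047) and Chac1 1.28 lower (SE 0.21, FDR 0.00020), both without overlap (1.69% of all genes). Sesn2 was 0.56 lower (SE 0.14, FDR 0.024), a call lost without BI 456906 replicate 62 (-0.48) or 65 (-0.47), and Ddit3 was 0.57 higher (SE 0.13, FDR 0.0085). For Asns the difference was 1.90 with a 95% interval of 0.40 to 3.39, but its FDR was 0.19 and it did not pass. The intervals of the other 5 genes include 0. They were -1.36 to 0.30 for Atf3, -0.73 to 0.67 for Phgdh, -0.48 to 0.75 for Psat1, -0.04 to 0.30 for Psph and -0.01 to 0.28 for Atf4, whose TPM values under BI 456906 lay above all those under semaglutide.

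Across unmatched doses, BI 456906 30 nmol/kg differed from semaglutide 100 nmol/kg in 2 genes that were higher and 1 that was lower (4.15% and 5.59% of all genes) and from semaglutide 20 nmol/kg in 2 and 2 (6.09% and 7.5%). Asns was higher by 2.48 (SE 0.70, FDR 0.019) and by 2.57 (SE 0.71, FDR 0.013). Atf4 was higher by 0.23 (FDR 0.035) and 0.30 (FDR 0.0037), and Trib3 lower by 0.74 (FDR 0.0013) and 0.77 (FDR 0.00058). Trib3 did not overlap either semaglutide group, nor Atf4 that at 20 nmol/kg (2.94% of all genes for 100 and 5.53% for 20 nmol/kg). Chac1 was lower against semaglutide 20 nmol/kg alone (-0.74, FDR 0.0077), while against 100 nmol/kg its value was -0.40 (FDR 0.21). Without semaglutide replicate 84 the differences from 100 nmol/kg in Asns (2.19, FDR 0.052) and Atf4 (0.22) were lost, and that in Atf4 was lost for 7 other single libraries as well (BI 456906 replicates 67, 68, 69 and 72 and semaglutide replicates 79, 80 and 82, 0.19 to 0.24).

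**Figure D2:**
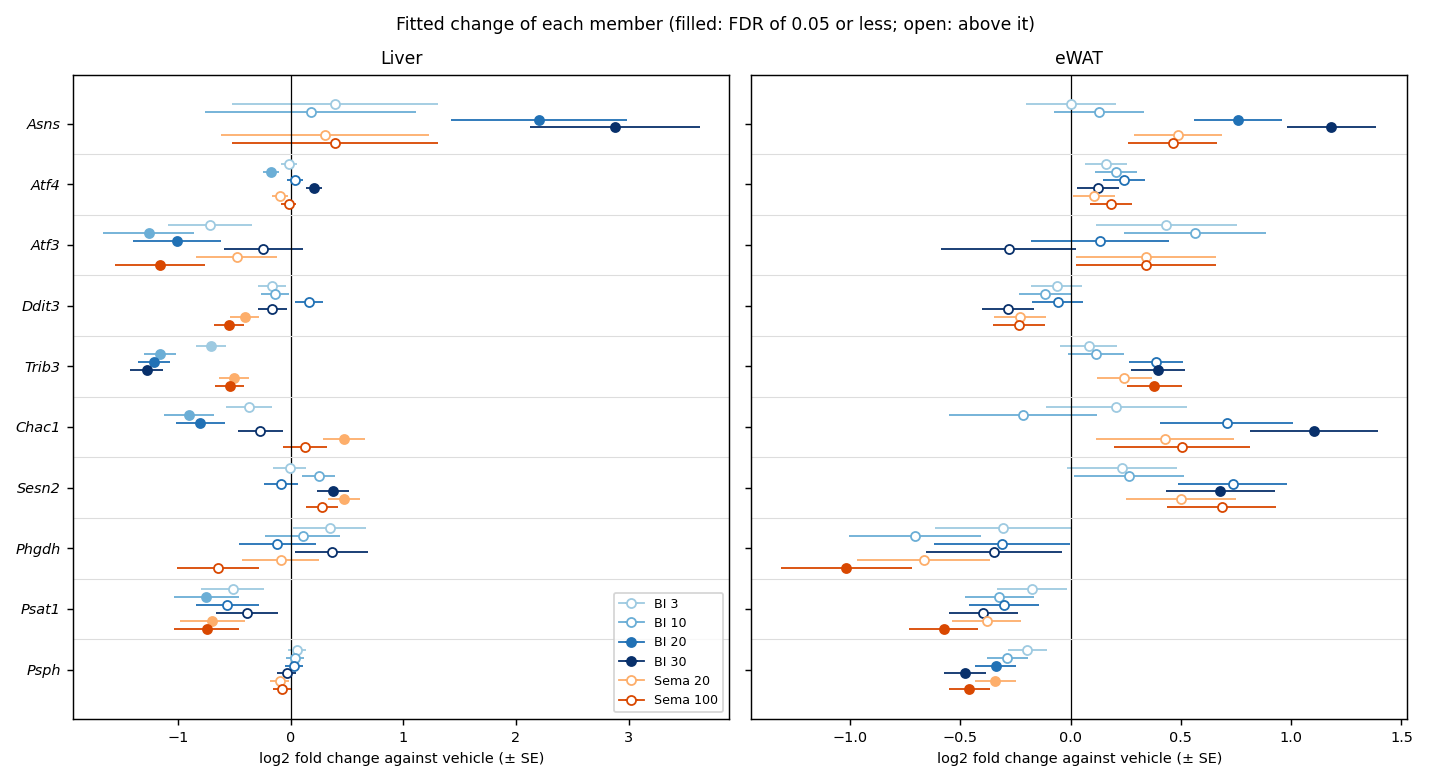
Fitted log2 fold change against vehicle (horizontal axis, with SE) of each of the 10 genes in liver and eWAT for the 6 treated groups; filled points have an FDR of 0.05 or less. In liver the points of Asns at BI 456906 20 and 30 nmol/kg stand at 2.20 and 2.88 and those of Trib3 between -1.28 and -0.50, while in eWAT Asns, Chac1, Sesn2 and Trib3 lie on the same side at 30 nmol/kg.

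Among liver mice of the same group, Asns did not go with the other genes. Asns had 5 to 320 reads per liver library, against 1020 to 3893 in eWAT, so a relation could be missed in liver. With group means removed from log2(TPM + 0.1), Pearson's r of Asns with Atf4 was 0.17 over 42 libraries (Spearman's rho 0.21), and r was between -0.32 and 0.18 for all but Ddit3. With Ddit3 it was -0.43 (rho -0.45), with a permutation p of 0.0043, adjusted to 0.0096 over the 18 pairs of both tissues, and r was -0.47 without the 2 libraries farthest from the median of Asns. On the voom scale that relation was -0.36 (adjusted p 0.057). Asns had an r of 0.46 with the summed hepatocyte markers, which were also higher at BI 456906 30 nmol/kg (88405 to 103692 TPM) than in vehicle (68834 to 83097 TPM, median 71871). Their medians were above vehicle in the groups where Asns was not called as well, 83713 and 86335 TPM at BI 456906 3 and 10 nmol/kg and 86677 and 90969 TPM at semaglutide 20 and 100 nmol/kg. Their part in the rise of Asns was not tested. As a description over all 42 liver libraries, the transcripts most like Asns were Cyp4a31 (rho 0.80), a fatty acid hydroxylase, Tmed5 (0.76), a cargo receptor of the early secretory pathway, 3930402G23Rik (0.76), Kdm4a (0.75), a histone demethylase, and Etfdh (0.75), which passes electrons from fatty acid and amino acid oxidation to the respiratory chain. By the same measure Atf4 ranked 386 of 15847 genes (rho 0.59), Sesn2 4609 (0.23) and Trib3 13249 (-0.40). The transcripts most like Phgdh in liver were Gm19196, Pfn1, Itgb7, Tcf7 and Dram1 (rho 0.56 to 0.58), at a depth of 4 to 21 Phgdh reads.

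In liver the share of called genes in the wider pathway is to be read against all tested genes, of which 28.9% were higher and 29.9% lower at BI 456906 30 nmol/kg and 24% and 24.1% at semaglutide 100 nmol/kg. Of 39 tested targets of the integrated stress response outside the 10, 20 were higher and 3 lower at BI 456906 30 nmol/kg, and 13 and 6 at semaglutide 100 nmol/kg, with list medians of 0.31 and 0.13 against -0.03 and -0.02 over all genes. The share called in either direction was thus close to that of all genes, while more of the calls were upward. Slc38a2 (log2 fold change 2.26, SE 0.17), the amino acid-responsive neutral amino acid transporter SNAT2, had the lowest FDR, followed by the oxidase Ero1l (0.81) and by Eif4ebp1 (-0.54), a translation repressor. BI 456906 30 nmol/kg exceeded semaglutide 100 nmol/kg in 8 of the 39 and was below it in 1, where 4.15% and 5.59% of all genes were called in these directions. At 20 nmol/kg of each compound, matched by dose alone, 3 were higher and 0 lower (0.908% and 1.51% of all genes).

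Of 20 cytosolic aminoacyl-tRNA synthetases, which charge tRNAs with amino acids, 14 rose and 2 fell at BI 456906 30 nmol/kg, while 8 rose and 2 fell at semaglutide 100 nmol/kg (28.9% and 29.9% of all genes for the former, 24% and 24.1% for the latter, as for every list here). The leading ones were Eprs (0.64), Mars (0.56) and Iars (0.51). The 2 doses differed in 6 synthetases, all higher under BI 456906, where 4.15% of all genes were higher and 5.59% lower in this comparison. Of 16 eIF2alpha kinases and regulators, 10 rose and 1 fell, led by Impact (0.77), which restrains GCN2, Ppp1r15b (0.53), a phosphatase subunit that removes the eIF2alpha mark, and Gcn1l1 (0.58), which activates GCN2. Among the kinases themselves Eif2ak4 rose by 0.29 (FDR 0.00070) and Eif2ak2 by 0.45, Eif2ak1 fell by 0.14 (FDR 0.0093), and Eif2ak3 stood at 0.10 without passing. Semaglutide 100 nmol/kg raised 8 of the 16. Between these 2 groups 1 of the 16 differed, where 9.75% of all genes did. At an unadjusted p under 0.05 there were 4 of the 16, and 3842 of all 15964 genes.

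Among 19 ER chaperones and targets of XBP1 and ATF6, 9 rose and 2 fell at 30 nmol/kg, where 28.9% and 29.9% of all genes did. At semaglutide 100 nmol/kg 5 rose and 0 fell (24% and 24.1%). Between these groups 0 differed by limma/voom, where 9.75% of all genes did. At an unadjusted p under 0.05 there were 3 of the 19, and 3842 of all 15964 genes. Atf6 (0.95), Dnajc3 (0.77) and Herpud1 (0.89) led the list. Genes of serine, glycine and one-carbon use went both ways, 9 higher and 9 lower of 22, against the same shares of all genes. Serine-consuming enzymes were at the top: Sds, serine dehydratase, rose by 2.03 and Cbs, cystathionine beta-synthase, by 1.39, while Gcsh of the glycine cleavage system fell by 0.65. Of the 22, 8 were higher and 1 lower than at semaglutide 100 nmol/kg (4.15% and 5.59% of all genes). Of 12 enzymes of asparagine, aspartate, glutamine and proline, 2 rose and 5 fell, led by liver glutaminase Gls2 (1.11), glutamine synthetase Glul (-0.83) and the asparaginase Asrgl1 (-0.79). Of 8 paralogs of the members 4 rose and 2 fell. Jdp2 (0.73), Trib1 (0.72) and Atf5 (0.54) led, Sesn1 fell by 0.28, and Trib2 (0.08) and Sesn3 (-0.25) did not pass. Several genes stand in more than a single list.

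Stellate cell and fibroblast markers moved with these lists in liver, 5 of 6 lower and 1 higher at both BI 456906 30 and semaglutide 100 nmol/kg, and 5 of 6 hepatocyte markers were higher and 1 lower in both. Of 7 macrophage markers 3 and 2 were lower, while their sums overlapped, with 138 to 246 TPM (median 231) at BI 456906 30 nmol/kg and 190 to 325 TPM (median 211) in vehicle. Neutrophil markers summed to at most 6.28 TPM in any liver library. The part of these cell types in the lists was not tested.

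**Figure D3:**
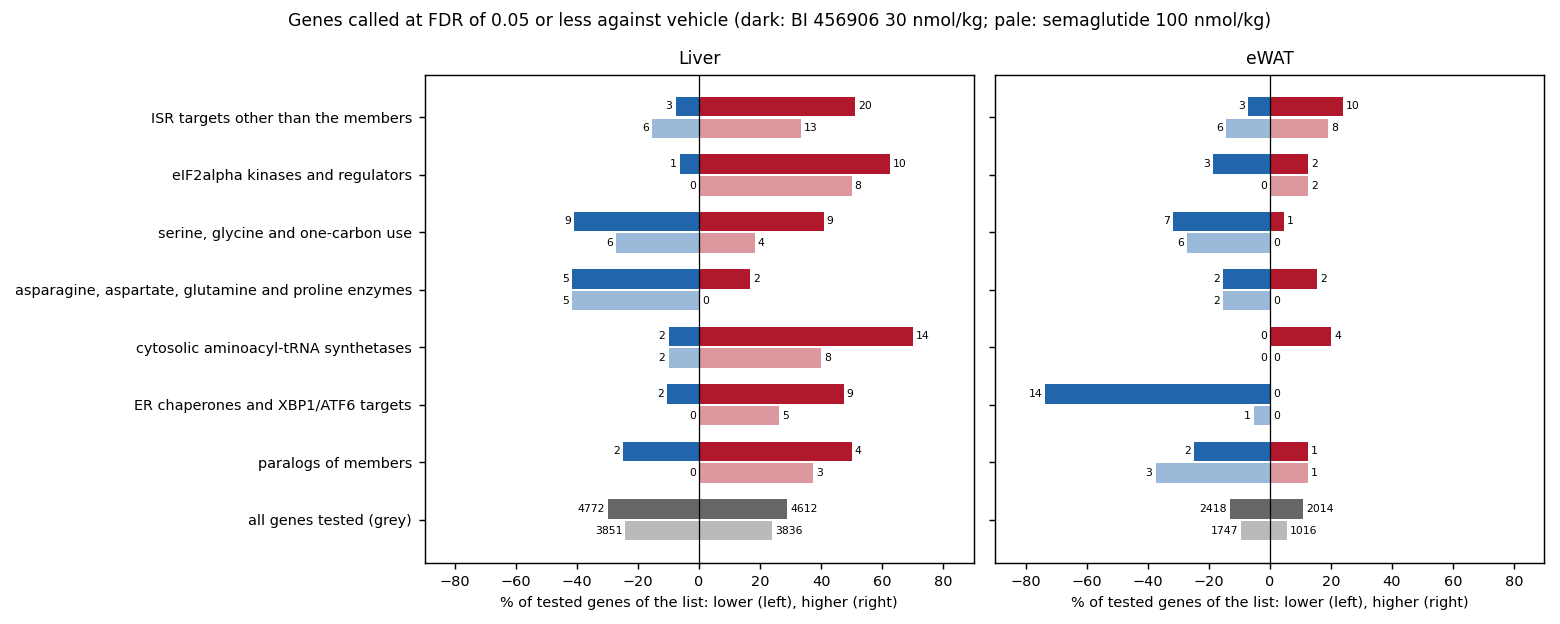
Share of the tested genes of each list that was called lower (left) or higher (right) against vehicle, in percent, in liver and eWAT; dark bars are BI 456906 30 nmol/kg, pale bars semaglutide 100 nmol/kg, grey bars all tested genes, and the number beside each bar is the count of genes. In liver 14 of 20 synthetases were higher at BI 456906 30 nmol/kg, and in eWAT 14 of 19 ER chaperones were lower.

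In eWAT, Asns rose with the dose of BI 456906 and was accompanied by Chac1, Sesn2 and Trib3. Asns was between 20.98 and 35.1 TPM in vehicle (median 24.8), between 35.2 and 77.6 TPM at 20 nmol/kg (median 42.1) and between 44.98 and 76.6 TPM at 30 nmol/kg (median 67.9). In TPM both groups lay above every vehicle value (2.47% of all genes at 20 and 6.31% at 30 nmol/kg did not overlap). At 20 nmol/kg the margin was narrow, with 35.21 TPM against a highest vehicle value of 35.05 TPM. In CPM the 20 nmol/kg group overlapped vehicle, with a lowest value of 35.98 against a highest vehicle value of 38.36. At 30 nmol/kg the lowest value was 52.92 CPM, above all vehicle values. The log2 fold changes were 0.76 (SE 0.20, FDR 0.024) and 1.18 (SE 0.20, FDR 8.3e-05), the slope was 0.42 for each 10 nmol/kg (SE 0.06, FDR 3.9e-06), and exact permutation of the TPM values gave the smallest possible p of 0.00216 at both doses. Semaglutide 20 nmol/kg had 26.6 to 66.96 TPM and 100 nmol/kg 27.2 to 60.6 TPM, with log2 fold changes of 0.49 (FDR 0.14) and 0.46 (FDR 0.11) that did not pass. By mean TPM the order was vehicle, BI 456906 3 and 10 nmol/kg, semaglutide 100 and 20 nmol/kg, BI 456906 20 and 30 nmol/kg, and all neighbours overlapped. The call at 20 nmol/kg was lost without vehicle replicate 3 (0.72) or BI 456906 replicate 20 (0.70) or 23 (0.63).

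Chac1 ran from 5.43 to 9.88 TPM in vehicle (median 7.33) and from 10.2 to 19.9 TPM at BI 456906 30 nmol/kg (median 17.5). These TPM values did not overlap. In CPM they did, with a lowest value of 9.01 at 30 nmol/kg against a highest vehicle value of 9.26. The log2 fold change of Chac1 was 1.10 (SE 0.29, FDR 0.0058). Sesn2 ran from 11.2 to 22.8 TPM in vehicle and from 20.2 to 27.4 TPM at 30 nmol/kg, and Trib3 from 7.03 to 9.43 and from 8.21 to 12.9 TPM. Both overlapped vehicle, with log2 fold changes of 0.68 (SE 0.25, FDR 0.042) and 0.40 (SE 0.12, FDR 0.018). Trib3 also rose at semaglutide 100 nmol/kg, by 0.38 (SE 0.12, FDR 0.033). Sesn2 at semaglutide 100 nmol/kg had a like value, 0.69 (SE 0.25), that did not pass (FDR 0.054). Several of these calls rest on single libraries: Trib3 at 30 nmol/kg was lost without vehicle replicate 2 (0.33) or BI 456906 replicate 30 (0.35), Sesn2 without vehicle replicate 1, 2, 3 or 4 or BI 456906 replicate 25, 26, 27 or 30 (0.59 to 0.68), and Trib3 at semaglutide 100 nmol/kg without vehicle replicate 1, 2 or 3 or semaglutide replicate 38, 39 or 40 (0.29 to 0.37).

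The transcription factors were not called in eWAT in any group. Atf4 was 98.3 to 118 TPM in vehicle and 105 to 144 TPM at 30 nmol/kg, Atf3 107 to 247 and 91.4 to 229 TPM, and Ddit3 54.1 to 67.5 and 42.95 to 57.95 TPM, all overlapping. Their log2 fold changes at 30 nmol/kg were 0.13 (FDR 0.35), -0.28 (FDR 0.53) and -0.28 (FDR 0.075). Exact two-sided permutation of TPM, unadjusted, gave Atf4 p = 0.0065, 0.015 and 0.019 at BI 456906 3, 10 and 20 nmol/kg. It gave 0.067 at 30 nmol/kg and 0.11 and 0.043 at semaglutide 20 and 100 nmol/kg. Mean Atf4 was above vehicle in all of these, with 136 against 110 TPM at BI 456906 20 nmol/kg. For Atf3 the smallest p of that test was 0.091, and for Ddit3, lower at BI 456906 30 nmol/kg, it was 0.013.

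**Figure D4:**
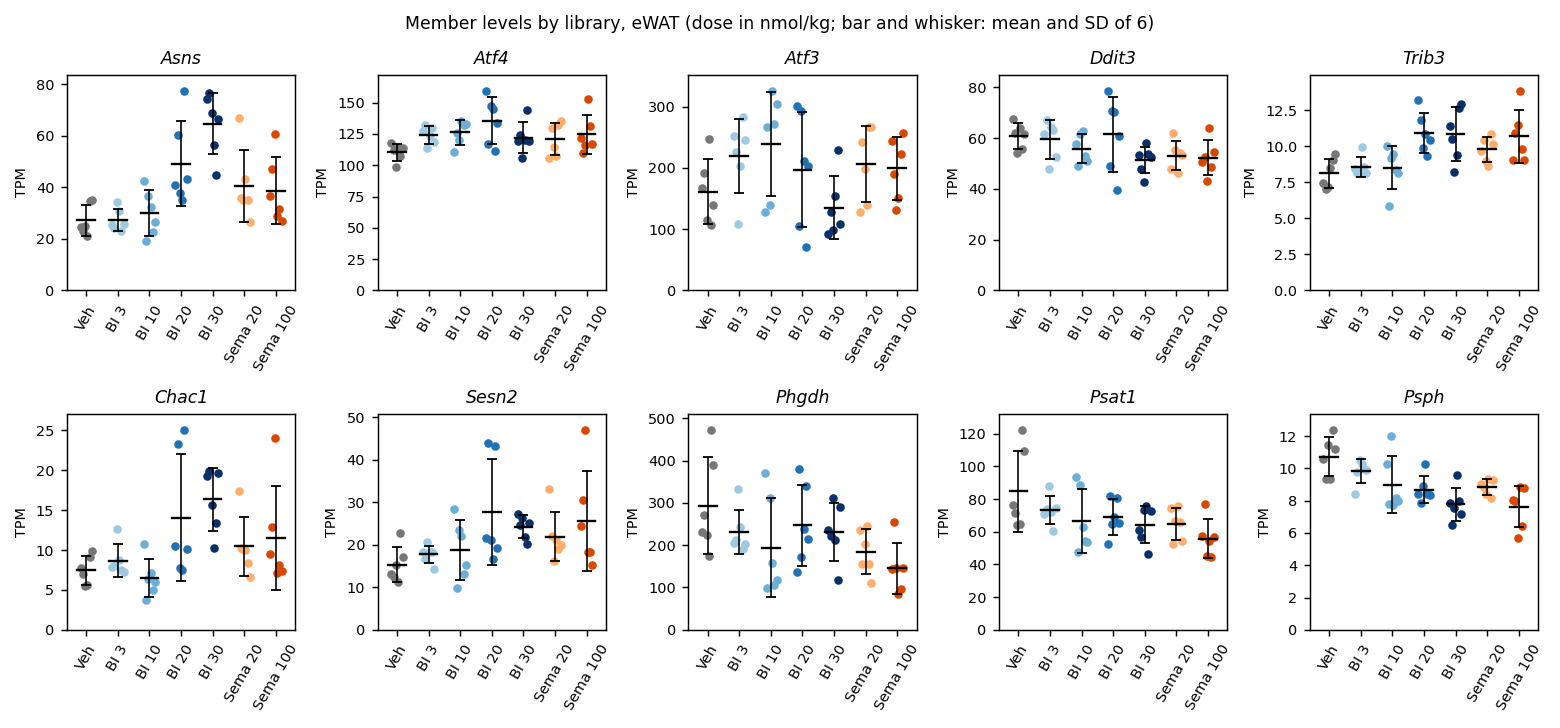
Level of each of the 10 genes in eWAT, in TPM, for the 7 groups on the horizontal axis (dose in nmol/kg); each point is a library, and the bar and whisker are the mean and SD of 6. In TPM, Asns at BI 456906 20 and 30 nmol/kg lies above every vehicle value of 20.98 to 35.1 TPM, at 20 nmol/kg narrowly (lowest 35.2 TPM). Psph at semaglutide 100 nmol/kg lies below every vehicle value.

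None of the serine enzymes rose in eWAT, and Psph was the 1 of them called lower under BI 456906. Psph was 9.32 to 12.4 TPM in vehicle, 6.51 to 9.60 TPM at BI 456906 30 nmol/kg and 5.71 to 8.85 TPM at semaglutide 100 nmol/kg, the last without overlap (3.4% of all genes). It fell by 0.34 (FDR 0.028) and 0.48 (FDR 0.00041) at BI 456906 20 and 30 nmol/kg and by 0.34 (FDR 0.020) and 0.46 (FDR 0.0011) at semaglutide 20 and 100 nmol/kg, each with an SE of 0.09. The 20 nmol/kg calls were lost without vehicle replicate 3, 5 or 6 or BI 456906 replicate 20, 23 or 24 (-0.31 to -0.28), and without vehicle replicate 5 or 6 or semaglutide replicate 32 (-0.33 to -0.29). Cct6a, which shares opposite-strand sequence with Psph, had up to 6312 reads per eWAT library, against 244 to 548 for Psph. If strand was not used in counting, these falls and the difference of Psph between tissues are uncertain. Phgdh ran from 175 to 472 TPM in vehicle and from 84.3 to 255 TPM at semaglutide 100 nmol/kg, where it fell by 1.02 (SE 0.30, FDR 0.018), and Psat1 from 63.9 to 122 and from 44.4 to 76.8 TPM, where it fell by 0.58 (SE 0.16, FDR 0.011). Both overlapped vehicle. These calls were lost without vehicle replicate 5 (-0.86 and -0.46) or 6 (-0.91 and -0.49), and that of Phgdh also without semaglutide replicate 40 (-0.88) or 41 (-0.93). At BI 456906 30 nmol/kg their values were -0.35 (FDR 0.43) and -0.39 (FDR 0.062). Processed pseudogenes with near-identical sequence to Phgdh had at most 59 reads in any eWAT library, against 2991 to 17228 for Phgdh.

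In eWAT 5 of the 10 were called at BI 456906 30 nmol/kg, 4 higher and 1 lower, where 10.9% and 13% of all genes were. At 20 nmol/kg 1 was higher and 1 lower (1.36% and 2.91% of all genes), at semaglutide 20 nmol/kg 0 and 1 (1.8% and 4.54%) and at semaglutide 100 nmol/kg 1 and 3 (5.48% and 9.42%). BI 456906 at 3 and 10 nmol/kg called 0 of the 10 by limma/voom, where 0.00539% and 0.513% of all genes were called. At these doses 1 and 4 of the 10 had an unadjusted p under 0.05, and edgeR and DESeq2 called 0 as well. The median log2 fold change of the 10 at 30 nmol/kg was -0.08 against -0.03 over all genes.

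None of the 10 genes differed between the compounds in eWAT by limma/voom. At 20 nmol/kg of each compound, matched by dose alone, 0% of the 18536 genes passed (815 at an unadjusted p under 0.05). Of the 10, 0 had an unadjusted p under 0.05 or were called by edgeR or DESeq2. The difference there was 0.27 for Asns (95% interval -0.13 to 0.67), 0.28 for Chac1 (-0.29 to 0.85), 0.23 for Sesn2 (-0.26 to 0.73) and 0.14 for Trib3 (-0.10 to 0.38). The intervals thus allow a difference in either direction. Between BI 456906 30 and semaglutide 100 nmol/kg Asns differed by 0.72 (SE 0.20, FDR 0.063), where 0.0108% of all genes passed and 3 of the 10 had an unadjusted p under 0.05. DESeq2 called Asns (0.70) and edgeR did not. That value passed without BI 456906 replicate 29 (0.82) or semaglutide replicate 38 (0.80) or 39 (0.86).

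Cell type markers varied widely among the eWAT libraries. The 7 macrophage markers (Clec4f, Vsig4, Adgre1, Cd68, Csf1r, Lyz2, Trem2) summed to 3078 to 8181 TPM in vehicle (median 6644), 3603 to 8892 TPM at BI 456906 30 nmol/kg (median 4348) and 5289 to 9960 TPM at semaglutide 100 nmol/kg (median 7700). The 6 adipocyte markers summed to 17727 to 34196, 15855 to 29419 and 11720 to 26981 TPM (medians 19916, 27546 and 17796). None of the 7 macrophage markers was called at either dose, and of the adipocyte markers Lep fell at both and Plin1 at semaglutide 100 nmol/kg. At BI 456906 30 nmol/kg 3 of 4 mesothelial markers rose and 3 of 6 lymphocyte markers fell, with summed medians of 93.3 and 16.8 TPM, against 41.8 and 29.1 TPM in vehicle. Hepatocyte markers, which should be near 0 in this tissue, reached 5909 TPM in vehicle and summed to over 1000 TPM in 9 libraries: 4 of vehicle, 2 at BI 456906 3 nmol/kg and 1 each at BI 456906 10 and 30 and semaglutide 100 nmol/kg. Summed neutrophil markers had 10.7 to 19.6 TPM in vehicle (median 16.8), and lay below all of these at BI 456906 20 nmol/kg (4.86 to 8.77 TPM, median 7.32) and 30 nmol/kg (4.44 to 9.03 TPM, median 5.82). Of the 3 neutrophil markers tested 0 were called at 20 and 1 was lower at 30 nmol/kg. In semaglutide 100 nmol/kg replicate 40 the sum was 461 TPM. The part of these cells in the changes was not tested except as follows.

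With the log2 macrophage sum as a term in the fit, an alternative chosen after the data were seen, 8 of the 10 were called at BI 456906 30 nmol/kg and 8 at semaglutide 100 nmol/kg (15.8% higher and 20.1% lower among all genes for the former, 10.5% and 12.9% for the latter). At 30 nmol/kg Asns (1.02, SE 0.11), Chac1 (0.88), Sesn2 (0.49), Trib3 (0.40) and Atf4 (0.19, FDR 0.018) were higher, and Phgdh (-0.61, SE 0.11), Psat1 (-0.51) and Psph (-0.50) lower. At semaglutide 100 nmol/kg Asns (0.71, SE 0.12, FDR 5.2e-05), Sesn2 (0.96), Chac1 (0.89) and Trib3 (0.38) were higher, and Phgdh (-0.63), Psat1 (-0.39), Psph (-0.44) and Ddit3 (-0.32) lower. The stress targets and the serine enzymes thus parted under both compounds in this fit, and the difference in Asns between these groups was 0.32 (FDR 0.30). Without the 9 libraries with hepatocyte markers, which leaves 2 vehicle libraries, 2 of the 10 were called at 30 nmol/kg, Asns (1.02, SE 0.31, FDR 0.048) and Psph (-0.55), and 2 at semaglutide 100 nmol/kg, Psph (-0.56) and Psat1 (-0.83). At 30 nmol/kg 1.66% of all genes were then higher and 3.63% lower. Chac1 stood at 0.89 (SE 0.47, FDR 0.27), Trib3 at 0.42 (SE 0.18, FDR 0.17) and Sesn2 at 0.42 (SE 0.37, FDR 0.56), against 1.10, 0.40 and 0.68 with all libraries.

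Among eWAT mice of the same group, Asns went with Chac1 and Sesn2. Pearson's r over 42 libraries was 0.91 with Chac1 and 0.90 with Sesn2 (rho 0.90 and 0.88), each with p = 1e-05, the smallest that 100000 permutations can give, and 4.5e-05 after adjustment over the 18 pairs. Without the 2 libraries farthest from the median of Asns r was 0.89 for both. Phgdh (r 0.79, rho 0.79, adjusted p 4.5e-05) and Psat1 (r 0.62, rho 0.61, adjusted p 0.00018) also went with Asns, Atf3 (r -0.78, rho -0.74), Atf4 (r -0.67, rho -0.66) and Ddit3 (r -0.49, rho -0.45) went against it, and Trib3 (0.20) and Psph (-0.00) showed no such relation. Without the 2 farthest libraries r for Phgdh, Psat1, Atf3, Atf4 and Ddit3 was 0.80, 0.62, -0.73, -0.60 and -0.37. Asns itself had an r of -0.86 with the macrophage sum and of 0.83 with the adipocyte sum, and Phgdh of -0.94 and 0.96.

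After regression of each gene on the macrophage sum within groups, chosen after the data were seen, r with Asns was 0.77 for Chac1 (rho 0.71) and 0.72 for Sesn2 (rho 0.60), with an adjusted p of 9e-05 for both and r of 0.71 and 0.64 without the 2 libraries farthest from the median. For Phgdh it was -0.12 (adjusted p 0.54), for Atf4 -0.12, for Atf3 -0.24 and for Psat1 -0.38 (adjusted p 0.10). Without the 2 farthest libraries it was 0.05 for Phgdh and -0.19 for Psat1. With Psph it was -0.46 (adjusted p 0.023), but the rho of -0.33 had an adjusted p of 0.15. Chac1 and Sesn2 were the 2 of the 9 genes that passed by both r and rho in this fit. With the adipocyte sum in its place, r was 0.82 for Chac1 and 0.76 for Sesn2. In that fit Atf3 (r -0.47, adjusted p 0.018), Psat1 (r -0.44, adjusted p 0.030) and Psph (r -0.52, adjusted p 0.0071) passed by both as well. Ddit3 (r -0.43, adjusted p 0.022) passed by r but not by rho (adjusted p 0.10).

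**Figure D5:**
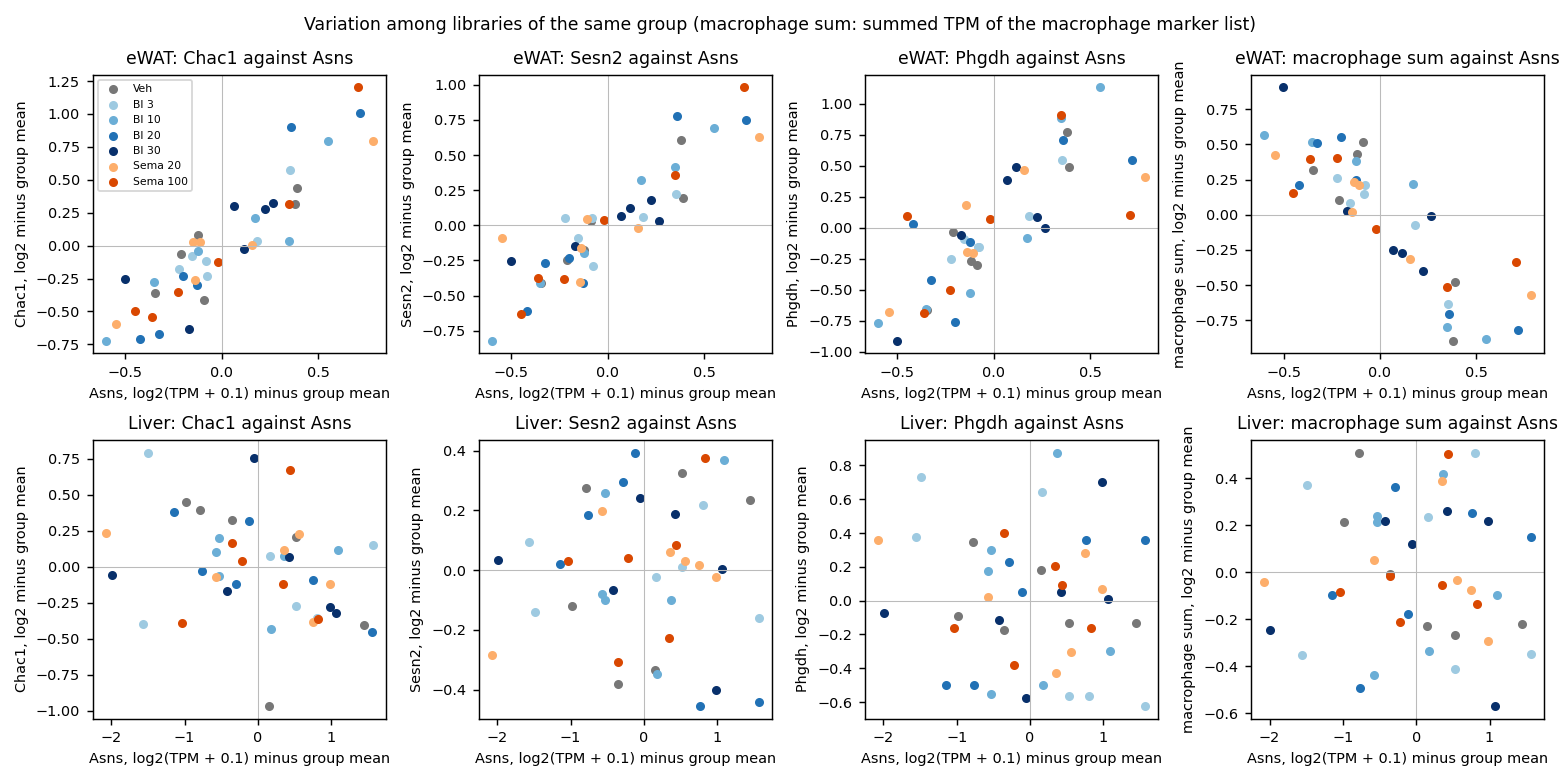
Each panel sets a gene or the macrophage marker sum (vertical axis) against Asns (horizontal axis), both as log2 values minus the mean of the library's group, for 42 libraries coloured by group, in eWAT (top) and liver (bottom). In eWAT Chac1 (r 0.91), Sesn2 (r 0.90) and Phgdh (r 0.79) rise with Asns and the macrophage sum falls (r -0.86), whereas in liver Chac1 (r -0.32), Sesn2 (r -0.01) and Phgdh (r -0.12) do not rise with it. Asns had 1020 to 3893 reads per eWAT library and 5 to 320 per liver library, so a relation could be missed in liver.

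In the wider pathway in eWAT the shares to compare with were 10.9% of all genes higher and 13% lower at BI 456906 30 nmol/kg, and 5.48% and 9.42% at semaglutide 100 nmol/kg. Of 42 other stress response targets 10 were higher and 3 lower at BI 456906 30 nmol/kg, and 8 and 6 at semaglutide 100 nmol/kg, with medians of 0.11 and 0.13 against -0.03 and 0.01 over all genes. The mTORC1 inhibitor Ddit4 rose by 2.25 (SE 0.43), the mitochondrial enzyme Pck2 by 0.63 and Slc38a2 by 0.44. Without the 9 libraries with hepatocyte markers 3 of the 42 were higher and 1 lower at 30 nmol/kg (1.66% and 3.63% of all genes). Of 20 synthetases 4 rose and 0 fell, among them Sars (0.24), Mars (0.21) and Yars (0.15), and 0 were called at semaglutide 100 nmol/kg (4 at an unadjusted p under 0.05).

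Of 16 eIF2alpha kinases and regulators 2 rose and 3 fell. Eif2ak2 (-0.40), Eif2s1 (-0.22) and Eif2ak3 (-0.13, FDR 0.049) fell, Eif2b4 rose (0.25), and Eif2ak1 and Eif2ak4 did not pass. ER chaperones fell together at BI 456906 30 nmol/kg, 14 of 19 lower and 0 higher (13% and 10.9% of all genes), with a list median of -0.40 and Edem1 (-0.52), Sel1l (-0.40) and Dnajc3 (-0.28) at the head. At semaglutide 100 nmol/kg 1 was lower and the median was 0.04. In the direct comparison of these groups 0 of the 19 passed by limma/voom, with a list median of -0.42, while 15 had an unadjusted p under 0.05, where 4567 of 18536 genes did. Without the 9 libraries with hepatocyte markers, 4 of them vehicle, 1 of the 19 was lower at 30 nmol/kg. In that fit 3.63% of all genes were lower, and the list median was -0.33.

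In the list of serine, glycine and one-carbon use 1 gene rose and 7 fell of 22 (10.9% and 13% of all genes), led by Glyctk (-1.72) and Cth (-1.50), and Sds stood at -1.78 without passing (FDR 0.19). Several of these are abundant in liver. The summed hepatocyte markers had a median of 107 TPM at this dose and 1560 TPM in vehicle, with overlapping ranges. Their part in these falls was not tested. Without the 9 libraries with hepatocyte markers, 4 of them vehicle, 0 were higher and 1 lower, where 1.66% and 3.63% of all genes were. Among the amino acid enzymes 2 of 13 rose and 2 fell, with Glul at 0.72, Pycr1 at -0.96 and Gpt at -0.62. Of the 8 paralogs 1 rose, Jdp2 (0.53), and 2 fell, Sesn3 (-0.99) and Chac2 (-0.44), while Sesn1 (0.39, FDR 0.055), Trib1 (-0.43) and Trib2 (-0.33) did not pass.

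The change at BI 456906 30 nmol/kg differed between the tissues for 3 of the 10 genes, where 46.3% of 15297 genes tested in both differed. Trib3 moved in opposite directions, and its change in liver minus that in eWAT was -1.79 (SE 0.20, FDR 1.9e-11). For Chac1 it was -1.50 (SE 0.39, FDR 0.00099) and for Psph 0.33 (SE 0.13, FDR 0.033). For Asns it was 1.58 (SE 0.71, FDR 0.061), and the quasi-likelihood test of edgeR gave 1.66 (FDR 0.017). At semaglutide 100 nmol/kg Trib3 (-0.97, FDR 3.6e-05), Atf3 (-1.59, FDR 0.032) and Psph (0.34, FDR 0.044) differed, where 33.8% of all genes did. Liver and eWAT libraries were treated as separate animals in this fit, since the labels do not tie them to mice.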

How the data were processed

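RNA sequencing of liver and eWAT was analysed from the authors' tables. Per the submitters' processing notes STAR 2.5.2b, RSEM 1.3.0, featureCounts 1.5.1 and builds mm10 and GRCm38 were used. The deposited read tables hold a scaled signal, the reads of each gene divided by 1 factor per library: 100% of nonzero values were whole multiples of 1 step (tolerance 0.01 reads), and in 10 of 84 libraries that step was near 1. The authors' TPM tables were used for levels. The paper describes strand-specific paired-end libraries and the labels another kit with single reads, so strand use is unsure. The main test was limma/voom 3.58.1 (TMM, edgeR 4.0.16, prior count 0.5, filterByExpr) on the signal as deposited, in R 4.3.3, with 42 libraries per tissue in 1 fit and Benjamini-Hochberg FDR over all genes. Intervals are limma's 95% intervals. The p-values of limma set the difference of group means against the spread between libraries within groups. That spread was pooled over the groups of a fit and moderated across genes. Permutation p-values come from rearranging TPM values between the groups compared or, for correlations, values within groups. Count tests (edgeR quasi-likelihood, DESeq2 1.42.0) ran on the recovered reads. On simulated liver counts for 30 nmol/kg against vehicle (16025 genes) the main test called 84% of 100 genes changed by a log2 size of 1 and 94% of 100 at size 2, with 9 false calls. No other genes were changed there, whereas 58.8% of genes were called in the data. The simulation used whole counts and genes of all levels, so it does not give the power for Phgdh, Psat1 or Asns in liver. Members and lists were chosen with earlier results of these data known. Named genes are the 10 members, up to 3 genes per list with the lowest FDR at BI 456906 30 nmol/kg, the 4 eIF2alpha kinases, Sds, 4 paralogs, and the 5 genes most like Asns and Phgdh. Alternatives were other normalizations, filters, tests, TPM scales, quality weights, fits of the compared groups only, and leaving out each library.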

Additional observations from a re-analysis of the deposited data

Results flagged for a closer look

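Of 140 groups of 6 values, 15 held a library whose gap to the nearest other value, divided by the range of the group, was above Dixon's 95% critical value, where chance flags about 1 in 20 groups. In liver these were Atf4 at BI 456906 20 nmol/kg (74.59 TPM in replicate 66, the others 59.79 to 62.69) and at semaglutide 100 nmol/kg (69.59 TPM in replicate 83, the others 56.03 to 59.49). Atf3 at BI 456906 30 nmol/kg was 7.22 TPM in replicate 72, with the others at 2.26 to 2.78 TPM. Chac1 was 7.02 TPM in replicate 52 of BI 456906 3 nmol/kg and 7.39 TPM in replicate 67 of 30 nmol/kg, Psat1 was 0.54 TPM in replicate 81 of semaglutide 100 nmol/kg, and Psph was lowest, at 3.29 TPM, in replicate 65 of BI 456906 20 nmol/kg.

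In eWAT, replicate 31 of semaglutide 20 nmol/kg stood apart in both Chac1 (17.41 TPM, the others 6.58 to 10.2) and Sesn2 (33.04 TPM, the others 16.12 to 22). Replicate 9 of BI 456906 3 nmol/kg did so in Chac1 (12.7 TPM) and Phgdh (331.73 TPM). Chac1 was 24 TPM in replicate 39 and Phgdh 255.38 TPM in replicate 38 of semaglutide 100 nmol/kg. Trib3 was 9.91 TPM in replicate 10 and Psph 8.41 TPM, the lowest, in replicate 7 of BI 456906 3 nmol/kg.

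Changes that differed between liver and eWAT by the interaction test were those of Trib3 (-1.79), Chac1 (-1.50) and Psph (0.33) at BI 456906 30 nmol/kg and of Trib3 (-0.97), Atf3 (-1.59) and Psph (0.34) at semaglutide 100 nmol/kg, as log2 fold change in liver minus that in eWAT.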

How the results depend on the processing

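No paired analysis was possible because the groups share no replicate numbers (1 to 42 in eWAT and 43 to 84 in liver). The rise of Asns at BI 456906 30 nmol/kg passed in both tissues under every alternative run that could test it. Leaving out each library in turn gave 2.60 to 3.38 in liver and 1.12 to 1.29 in eWAT. With at least 10 reads in every library Asns and Phgdh were not tested in liver.

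Counts of the 10 genes called moved by over 1.5 times as follows, and the causes were not tested. The number of all genes called depends on the setting as well, so these counts do not describe the 10 genes alone. At BI 456906 10 nmol/kg in liver 3076 of 31197 genes were higher and 2388 lower without a filter. In the main fit 3095 of 15964 were higher and 2891 lower. In liver, BI 456906 3 nmol/kg called 1, and 2 with quality weights and 0 when only the groups compared were fitted. BI 456906 10 nmol/kg called 5, and 3 without a filter, with DESeq2 and on both TPM scales. BI 456906 30 nmol/kg called 4, and 7 with quality weights. Semaglutide 20 nmol/kg called 5, and 3 without a filter, with edgeR and with DESeq2. BI 456906 30 against semaglutide 100 nmol/kg called 3, and 5 with quality weights.

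In eWAT, quality weights called 3 at BI 456906 10 nmol/kg (0 in the main fit), 2 at semaglutide 20 nmol/kg (1), 4 for BI 456906 30 against semaglutide 100 nmol/kg (0) and 3 for BI 456906 30 against semaglutide 20 nmol/kg (0). Fitting the compared groups only called 0 at BI 456906 20 nmol/kg (2), 0 at semaglutide 20 nmol/kg and 1 at semaglutide 100 nmol/kg (4). BI 456906 20 nmol/kg called 1 without a filter, 4 with edgeR and 5 with DESeq2, semaglutide 20 nmol/kg 0 without a filter and on both TPM scales, and BI 456906 30 against semaglutide 100 nmol/kg 1 with DESeq2 and 1 with at least 10 reads. The macrophage term called 8 at BI 456906 20 nmol/kg, 8 at 30 nmol/kg, 7 at semaglutide 20 nmol/kg, 8 at 100 nmol/kg and 8 for the slope (5), and the adipocyte term 8, 7, 5, 8 and 8, with 1 for BI 456906 30 against semaglutide 20 nmol/kg. Without the 9 libraries with hepatocyte markers the counts were 0, 2, 0, 2 and 3. The shares of all genes moved with these fits. At BI 456906 20 nmol/kg 5.89% were higher and 10.7% lower with the macrophage term, and 5.11% and 9.84% with the adipocyte term. Without the 9 libraries the shares there were 0.0755% and 0.302%, against 1.36% and 2.91% in the main fit.

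Leaving out each library gave 3 to 5 in liver at BI 456906 10 nmol/kg, 2 to 4 at 20 nmol/kg, 3 to 5 at semaglutide 20 nmol/kg and 1 to 3 for BI 456906 30 against semaglutide 100 nmol/kg. In eWAT it gave 0 to 1 at BI 456906 10 nmol/kg, 0 to 3 at 20 nmol/kg, 3 to 6 at 30 nmol/kg, 0 to 1 at semaglutide 20 nmol/kg, 2 to 5 at 100 nmol/kg and 0 to 1 for BI 456906 30 against semaglutide 100 nmol/kg.

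The within-group correlation of Asns with Ddit3 in liver was -0.36 on the voom scale. In eWAT the correlation with Asns was also taken after regression on the macrophage sum or on the adipocyte sum. In that order it was -0.12 and -0.13 for Phgdh and -0.38 and -0.44 for Psat1, both of opposite sign to before. For Atf4 it was -0.12 and -0.20, for Psph -0.46 and -0.52, for Atf3 -0.24 and -0.47, and for Ddit3 -0.24 and -0.43. Depth limits the liver values of Phgdh, Psat1 and Asns most.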
